A study of Mus musculus with 7 samples.

Results

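Interferon-induced genes, the antiviral programme that cells switch on when they sense interferon, were followed in hematopoietic stem cells of Ahr knockout and wild-type mice. The set was a list of 47 genes, and each was represented by the array's probe set that the platform annotation assigned to that gene alone. Where a gene had several such probe sets, the one with the highest mean over all 7 arrays was used. By this rule 43 of the 47 genes were measured, out of 22180 genes with such a probe set on the array. Irf5, Oas1a and Gbp2 were not counted because their probe sets also carried the names of Tnpo3, Oas1g and Gbp2b, and Ifi44 had no named probe set here. Ifi35 was the only member with more than 1 probe set of its own.

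The knockout group (Ahr-KO, 3 arrays) came from mice lacking the aryl hydrocarbon receptor, a ligand-activated transcription factor of the bHLH-PAS family, and the wild-type group (WT, 4 arrays) from mice with intact Ahr. All mice were 8 weeks old, untreated as far as the labels say, and on a C57BL/6J background. The labels name neither the knockout allele nor the sex of the mice. Stem cells were sorted from lineage-depleted bone marrow by SLAM-family markers, and RNA was amplified to biotinylated cDNA. Nothing in the labels states whether an array stands for a separate mouse or for a pool, so every p-value here reflects array-to-array spread alone, part or all of which may be technical.

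Type I interferons bind the receptor pair Ifnar1 and Ifnar2, and the kinases Jak1 and Tyk2 then phosphorylate Stat2. Stat2 acts with Irf9 in the complex ISGF3, which binds interferon-stimulated response elements in the promoters of its target genes. Interferon gamma signals through its own receptor and, by way of Irf1, induces the large guanylate-binding proteins and immunity-related GTPases. In blood stem cells, acute interferon is known to drive cells out of quiescence, and stem cells are known to keep part of the programme expressed without infection, the Ifitm genes among them.

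Intensities are on the linear scale of the deposited table, and differences are Ahr-KO minus WT on the scale log2(intensity + 1). A probe set was called above background where it exceeded the 95th percentile of the 1108 olfactory receptor probe sets of the same array, a mark between 33.8 and 42.8. On the arrays, 34.7, 41.6 and 36.0% of all genes lay above that mark in Ahr-KO cells, against 35.8, 30.1, 33.6 and 44.4% in WT cells. Ahr-KO replicate 2 and WT replicate 4 thus had the highest shares of their genotypes, and WT replicate 2 the lowest of the 7. The stem cell identity of the samples was checked with 12 markers, of which 11 were measured, 5 lay above background on all 7 arrays and none lay below it everywhere. The stem cell factor receptor gene Kit stood at 833, 653 and 722 in Ahr-KO cells and at 747, 1186, 788 and 1258 in WT cells. The SLAM-family gene Slamf1, which encodes CD150, stood at 57.4, 78.0 and 236 in Ahr-KO cells and at 4.56, 23.3, 7.81 and 73.3 in WT cells, above background on 3 Ahr-KO arrays and 1 WT array. Fgd5 lay above background on no Ahr-KO array and on 2 WT arrays, and Tek on 1 Ahr-KO array and 2 WT arrays. The Evi1 locus Mecom was listed at 0 on WT replicate 2.

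No interferon-induced gene differed between the genotypes in the limma fit across all probe sets, where adjusted p-values of the 43 members ran from 0.963 to 1.0. Of all 25335 probe sets tested, 0.0% passed an adjusted p of 0.05. Values were higher in Ahr-KO cells for 22 members and lower for 21, or 51.2% against 48.4% of all genes with a difference above 0. The median difference of the members was 0.00, beside -0.03 over all genes. Gbp3 and Isg20, 2 of 43 members, had an unadjusted limma p under 0.05, where 4.02% of all genes did; Gbp3 was among the 1.98% that were higher in Ahr-KO cells and Isg20 among the 2.04% that were lower. The count depended on single arrays: it was 0 when Ahr-KO replicate 2 or either of WT replicates 1 and 2 was left out, 1 without Ahr-KO replicate 3 (Irf7) or without WT replicate 3 (Irf2), and 4 without WT replicate 4 (Gbp3, Igtp, Irf7 and Isg20). For 2 of 43 members, Igtp and Ifitm1, the values of the genotypes did not overlap, both higher in Ahr-KO cells, whereas 5.78% of all genes had groups that did not overlap, 2.62% higher and 3.15% lower.

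**Figure D1:**
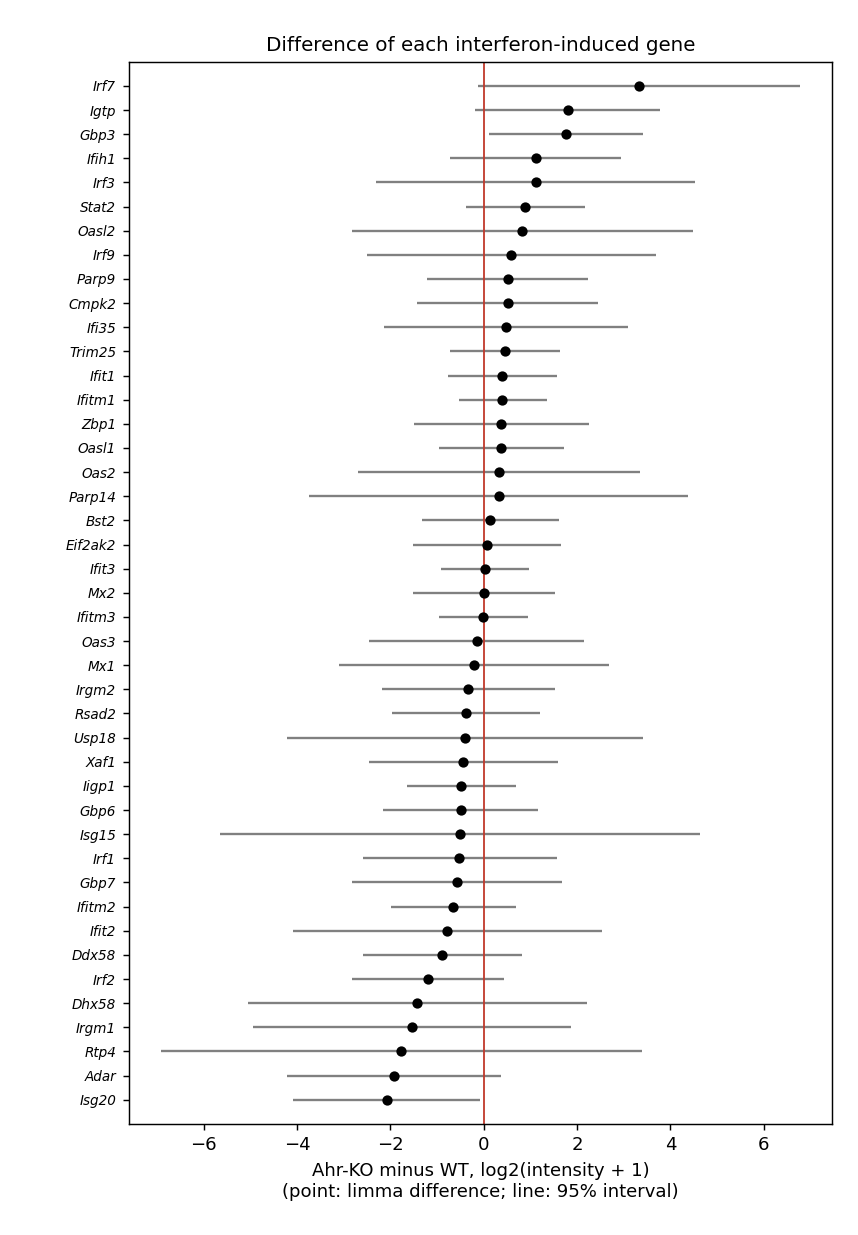
Difference of each of the 43 interferon-induced genes (rows), Ahr-KO minus WT on the log2(intensity + 1) scale (horizontal axis), with points for the limma difference and lines for its 95% interval. Differences run from -2.08 for Isg20 to 3.33 for Irf7, and the intervals of all members except Gbp3 and Isg20 include 0.

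The precision of these arrays bounded what could be seen. The median standard error of a member's difference was 0.84 log2 units, against 0.69 over all genes. For Ifit3 and Ifitm3 the 95% interval of the difference lay within 1 log2 unit of 0 on either side, from -0.91 to 0.96 and from -0.96 to 0.94. For the other 41 members the interval reached past a 2-fold difference in at least 1 direction, so a difference of that size was not excluded by the measurement.

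The members varied widely between arrays of the same genotype. Their mean log2 level was 5.73, 6.66 and 5.48 on the knockout arrays and 6.14, 5.11, 5.84 and 6.80 on the wild-type arrays, so the highest level of each genotype was on Ahr-KO replicate 2 and WT replicate 4. As group values this gave 5.96 ± 0.618 (SD, n = 3) in Ahr-KO cells and 5.98 ± 0.701 (SD, n = 4) in WT cells, a difference of -0.02. Relative to the mean of all genes on the same array, the members stood 1.06, 1.61 and 0.68 log2 units above it in Ahr-KO cells and 1.27, 0.52, 1.03 and 1.67 in WT cells, which kept the same 2 arrays on top. Of the 43 members, 24, 35 and 26 lay above background on the knockout arrays and 25, 19, 26 and 37 on the wild-type arrays. These counts are shares of 55.8, 81.4 and 60.5% in Ahr-KO cells and of 58.1, 44.2, 60.5 and 86.0% in WT cells.

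**Figure D2:**
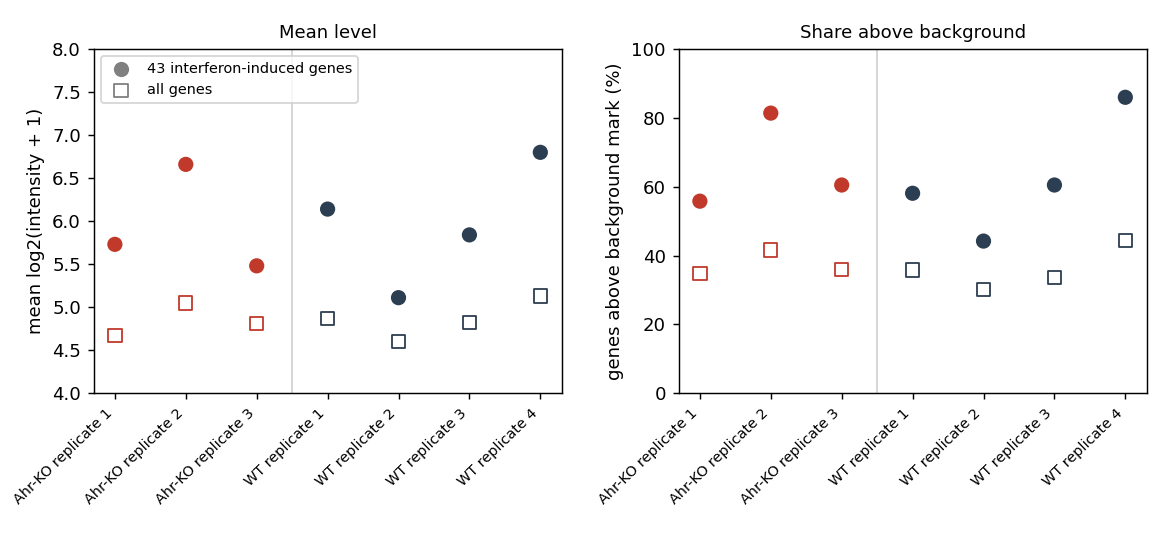
Left: mean log2(intensity + 1) of the 43 interferon-induced genes (filled circles) and of all 22180 genes (open squares) on each array; right: percent of the same genes above the olfactory receptor background mark. Ahr-KO arrays are red and WT arrays dark blue. The members reach 6.66 on Ahr-KO replicate 2 and 6.80 on WT replicate 4, and 5.11 on WT replicate 2. The squares, which average many more genes, span 4.60 to 5.13, so the 2 spreads are not directly comparable.

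Within the knockout, replicate 2 held the highest value of the Ahr-KO arrays for 21 members, or 48.8%, beside 35.1% of all genes. Within the wild type, replicate 4 held the highest value of the WT arrays for 23 members, or 53.5%, beside 26.4% of all genes, and replicate 2 the lowest for 20 members, or 46.5%, beside 32.7%. For 10 of the 43 members (23.3%) Ahr-KO replicate 2 and WT replicate 4 were the 2 highest of the 7 arrays, as they were for 6.25% of all genes. The 10 genes were Cmpk2, Irf1, Irf7, Irf9, Irgm2, Oas2, Oasl1, Oasl2, Parp9 and Usp18. These 2 arrays were singled out after their values were seen, and the counts are descriptions. With both left out, 23 members were higher in Ahr-KO cells and the mean difference was -0.09.

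**Figure D3:**
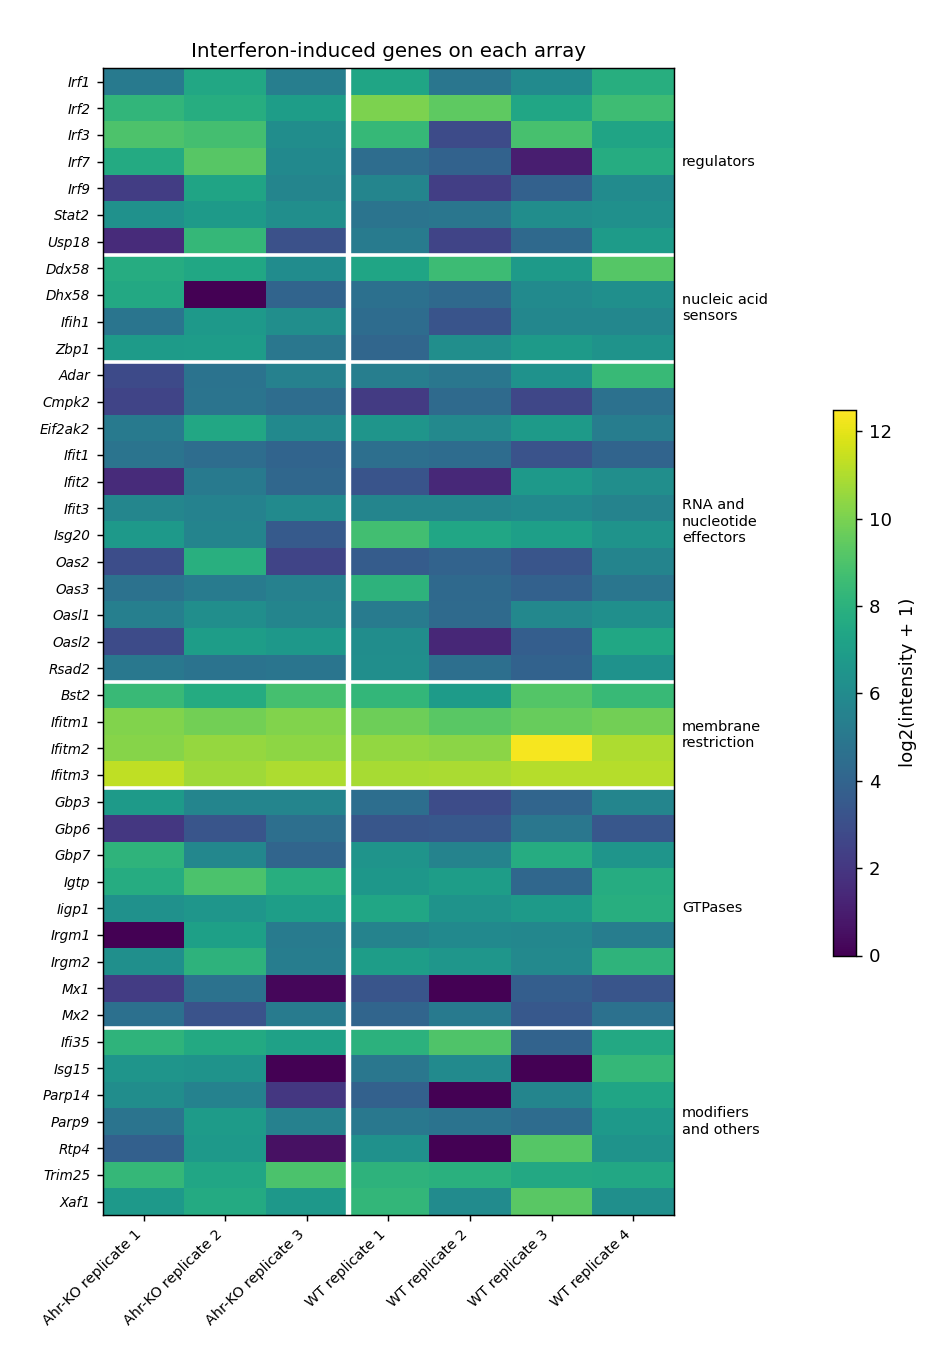
Log2(intensity + 1) of each measured interferon-induced gene (rows, grouped by role) on each array (columns, Ahr-KO left and WT right of the white line). The Ifitm rows are high on every array, whereas Usp18, Oas2, Oasl2 and Irf7 are bright on Ahr-KO replicate 2 and WT replicate 4 and darker on most others.

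Among the regulators, the interferon regulatory factors and Stat2, 4 of 7 measured genes were higher in Ahr-KO cells and 3 lower, none with an unadjusted p under 0.05. Irf7, the factor that amplifies type I interferon production and is itself strongly induced by interferon, stood at 202, 605 and 59.4 in Ahr-KO cells, against 20.8, 14.3, 1.04 and 209 in WT cells. All 3 Ahr-KO values lay above background and above 3 of the WT values, while WT replicate 4 exceeded Ahr-KO replicates 1 and 3. Irf7 differed by 3.33 ± 1.49 log2 units (SE; limma adjusted p = 0.963). It was 2.24 without WT replicate 3, where the intensity was near 0, and 4.47 without WT replicate 4.

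Stat2, the ISGF3 subunit that carries the transactivation domain, stood at 79.8, 110 and 70.4 in Ahr-KO cells and at 27.5, 29.1, 67.9 and 77.6 in WT cells. The groups met only at WT replicate 4, and the difference was 0.89 ± 0.55 (SE). Irf9, the DNA-binding subunit of the same complex, stood at 3.82, 156 and 49.8 in Ahr-KO cells and at 50.0, 4.07, 13.8 and 65.2 in WT cells. Its values spanned more than 10-fold within each genotype, with a difference of 0.59 ± 1.33 (SE).

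Irf1, which relays interferon gamma signals, stood at 34.0, 181 and 40.0 in Ahr-KO cells and at 161, 28.6, 62.8 and 227 in WT cells. Irf2, known as an antagonist of Irf1 that also restrains interferon signalling in stem cells, stood at 299, 220 and 125 in Ahr-KO cells and at 1047, 667, 169 and 387 in WT cells. The 3 highest Irf2 values were all WT, WT replicate 3 lay among the Ahr-KO values, and the difference was -1.19 ± 0.70 (SE). Irf3, the constitutive factor activated by cytosolic nucleic acid sensing, stood at 510, 434 and 70.0 in Ahr-KO cells and at 333, 6.34, 463 and 159 in WT cells. Its difference of 1.11 ± 1.48 (SE) became -0.22 without WT replicate 2, the array with the value of 6.34.

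Usp18, the protease that removes Isg15 from proteins and blocks the type I receptor, varied most plainly with the array. It stood at 1.93, 317 and 7.68 in Ahr-KO cells and at 36.0, 4.90, 18.3 and 116 in WT cells. Only Ahr-KO replicate 2 and WT replicate 4 lay above background, and the difference was -0.40 ± 1.65 (SE).

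The nucleic acid sensors showed no common direction, with 2 of 4 higher in Ahr-KO cells. Ddx58, which encodes the RNA sensor RIG-I, was above background on all arrays, at 213, 176 and 67.4 in Ahr-KO cells and 163, 383, 110 and 595 in WT cells, and differed by -0.89 ± 0.74 (SE), or -0.39 without Ahr-KO replicate 3. Ifih1, which encodes the long double-stranded RNA sensor MDA5, stood at 28.1, 106 and 70.9 in Ahr-KO cells and at 20.6, 8.45, 54.2 and 54.9 in WT cells, a difference of 1.11 ± 0.79 (SE) that was 0.58 without WT replicate 2. Dhx58, encoding the related protein LGP2, was listed at 0 on Ahr-KO replicate 2 and stood at 186 and 15.4 on the other Ahr-KO arrays, against 23.9, 18.1, 62.6 and 73.6 in WT cells. The difference of -1.42 turned to 0.51 without Ahr-KO replicate 2. Zbp1, a sensor of Z-form nucleic acids, differed by 0.38 ± 0.81 (SE).

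Of 12 effectors that act on RNA or nucleotides, 7 were higher in Ahr-KO cells and 5 lower. Isg20, a 3'-to-5' exonuclease for RNA, had the lowest difference of the members. It stood at 109, 49.4 and 10.8 in Ahr-KO cells and at 423, 169, 132 and 86.0 in WT cells. The groups overlapped only through Ahr-KO replicate 1, which lay above WT replicate 4. The difference was -2.08 ± 0.87 (SE; limma adjusted p = 0.963), and it was -1.19 without Ahr-KO replicate 3. Adar, the enzyme that edits adenosine to inosine in double-stranded RNA, stood at 5.91, 25.8 and 43.9 in Ahr-KO cells and at 39.9, 29.9, 80.6 and 345 in WT cells, a difference of -1.93 ± 0.99 (SE) that was -1.16 without Ahr-KO replicate 1.

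The Ifit genes encode proteins that bind foreign RNA ends or each other. Ifit3 was the steadiest, at 52.3, 46.1 and 61.6 in Ahr-KO cells and 50.0, 51.0, 59.9 and 47.9 in WT cells, with a difference of 0.03 ± 0.40 (SE). Ifit1 lay above background on no array, with values of 15.5 to 27.5 in Ahr-KO cells and 8.33 to 22.8 in WT cells. Ifit2 exceeded background on 3 arrays, at 34.8 on Ahr-KO replicate 2 and at 107 and 70.5 on WT replicates 3 and 4.

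The Oas and Oasl genes belong to the family of double-stranded RNA-activated oligoadenylate synthetases and their relatives. Oas2 stood at 6.80, 238 and 4.85 in Ahr-KO cells and at 11.5, 15.0, 8.68 and 49.0 in WT cells. Oasl2 stood at 6.25, 123 and 101 in Ahr-KO cells and at 68.1, 1.61, 12.3 and 171 in WT cells. For both genes Ahr-KO replicate 2 and WT replicate 4 were the highest of their genotypes. Oas3 followed another array, with 270 on WT replicate 1 and 13.7 to 43.6 on the other 6. Oasl1, which in mice restrains translation of Irf7 mRNA, stood at 41.4, 72.2 and 50.1 in Ahr-KO cells and at 35.4, 18.7, 56.0 and 73.4 in WT cells. The differences of these 4 genes ran from -0.15 to 0.83.

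Eif2ak2, encoding the double-stranded RNA-dependent kinase PKR, stood at 34.1, 182 and 61.0 in Ahr-KO cells and at 90.1, 57.8, 110 and 39.0 in WT cells, a difference of 0.07 ± 0.68 (SE). Rsad2, encoding viperin, exceeded background on WT replicates 1 and 4 only, at 70.6 and 82.0, while the Ahr-KO values were 30.7, 26.2 and 28.2. Its neighbour Cmpk2, a mitochondrial nucleotide kinase gene, was above background on no array.

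**Figure D4:**
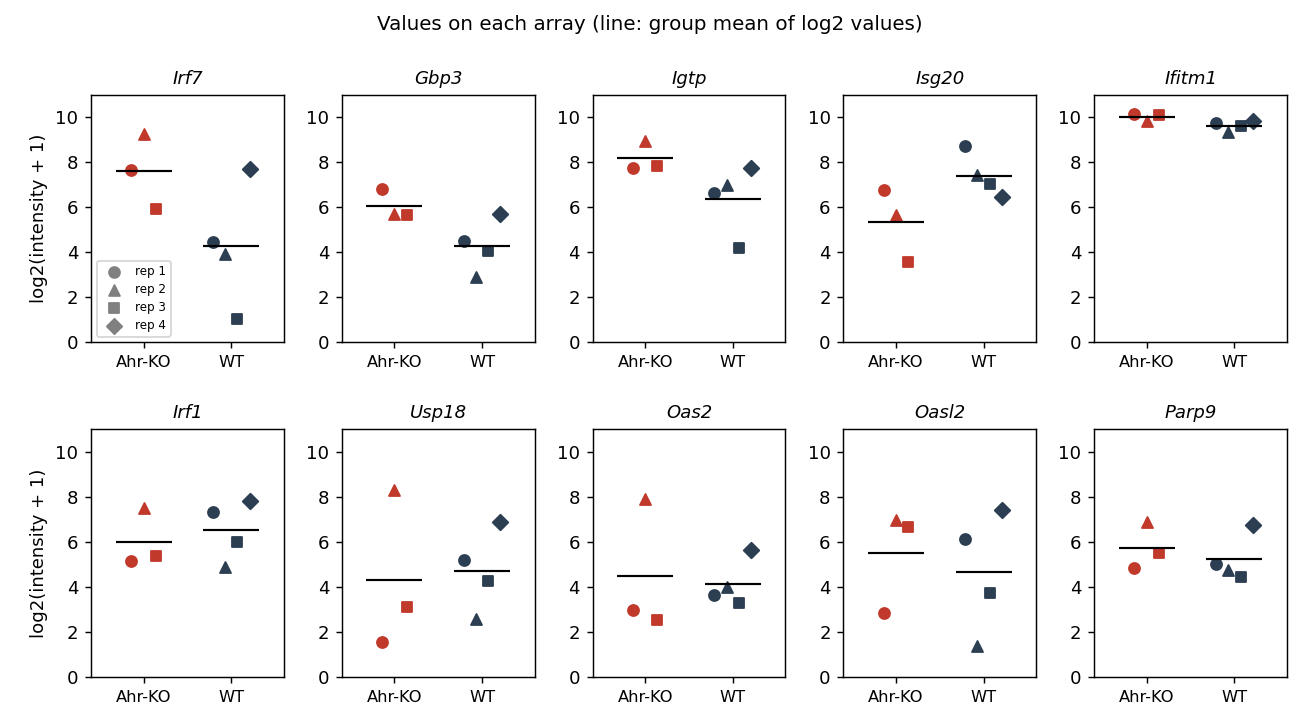
Log2(intensity + 1) of 10 interferon-induced genes on each array, Ahr-KO left and WT right in each panel; symbols mark the replicate number, which names an array and does not pair arrays, and lines are group means. Upper row: 3 Ahr-KO values of Igtp and Ifitm1 lie above all WT values, whereas those of Irf7, Gbp3 and Isg20 overlap WT. Lower row: the Ahr-KO replicate 2 and WT replicate 4 values are the highest of their genotype in all 5 panels. These 5 genes are among the 10 of 43 members whose 2 highest arrays are these, so their choice fixed that pattern.

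The membrane restriction factors, which block virus entry or release, were above background on every array. Ifitm1 stood at 1118, 917 and 1103 in Ahr-KO cells and at 854, 638, 778 and 906 in WT cells. Every Ahr-KO value exceeded every WT value, by as little as 917 against 906, and the difference was 0.40 ± 0.41 (moderated SE; limma adjusted p = 0.963). Ifitm3 stood at 2534, 1690 and 1994 in Ahr-KO cells and at 1891, 1901, 2237 and 2237 in WT cells, with a difference of -0.01 ± 0.41 (SE). Ifitm2 stood at 1194, 1471 and 1323 in Ahr-KO cells and at 1436, 1271, 5060 and 1998 in WT cells. WT replicate 3 alone lay far above the rest, and without it the Ifitm2 difference of -0.65 was -0.22. Bst2, encoding the virus-tethering protein tetherin, stood at 349, 205 and 454 in Ahr-KO cells and at 312, 116, 562 and 345 in WT cells, a difference of 0.14 ± 0.63 (SE). The mean log2 level of these 4 genes was 10.03, 9.69 and 10.07 on the knockout arrays and 9.85, 9.35, 10.54 and 10.09 on the wild-type arrays. Ahr-KO replicate 2, the highest Ahr-KO array for the members as a whole, was the lowest Ahr-KO array for the mean of these 4. Ifitm2 alone of the 4 was highest of the Ahr-KO arrays there, at 1471. The Ifitm genes are close relatives, and probes shared between them were not checked.

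Among the GTPases, 3 of 9 measured genes were higher in Ahr-KO cells and 6 lower. Gbp3, a guanylate-binding protein gene, stood at 110, 50.4 and 49.9 in Ahr-KO cells and at 21.7, 6.56, 15.6 and 50.7 in WT cells. WT replicate 4 reached the level of Ahr-KO replicates 2 and 3, and the other WT values lay below background. The difference was 1.76 ± 0.71 (SE; limma adjusted p = 0.963). Igtp, which encodes the immunity-related GTPase Irgm3, stood at 215, 494 and 226 in Ahr-KO cells and at 97.8, 125, 17.3 and 211 in WT cells. All Ahr-KO values exceeded all WT values, with 215 against 211 at the narrowest, and Igtp differed by 1.80 ± 0.86 (SE; limma adjusted p = 0.963). Leaving out WT replicate 3 gave 1.07.

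Differences of the other GTPase genes lay near 0 or below it. Irgm2 stood at 73.7, 271 and 38.8 in Ahr-KO cells and at 122, 94.4, 57.2 and 275 in WT cells, a difference of -0.33 ± 0.80 (SE). Iigp1 stood at 79.7, 94.5 and 129 in Ahr-KO cells and at 167, 84.8, 112 and 229 in WT cells, a difference of -0.48 ± 0.51 (SE) that was -0.23 without WT replicate 4. Irgm1, a regulator of the other immunity-related GTPases, was at 0.02 on Ahr-KO replicate 1 and at 138 and 35.8 on the other Ahr-KO arrays, and stood at 47.5, 59.5, 54.9 and 38.2 in WT cells. Gbp7 ran from 16.1 to 281 in Ahr-KO cells and from 46.4 to 216 in WT cells. Gbp6, Mx1 and Mx2 lay above background on no array. Mx1, which carries an inactivating deletion in the C57BL/6 strain, was listed at 0 on WT replicate 2.

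Of the 7 remaining measured members, 4 were higher in Ahr-KO cells and 3 lower. Isg15, the ubiquitin-like protein that is conjugated to other proteins during an interferon response, stood at 89.6, 86.0 and 0.01 in Ahr-KO cells and at 30.2, 62.0, 0.01 and 324 in WT cells. It lay near 0 on 1 array of each genotype, so the log2 difference of -0.51 ± 2.22 (SE) had the second widest standard error of the members. Trim25, the ubiquitin ligase that acts on RIG-I, stood at 320, 167 and 494 in Ahr-KO cells and at 270, 246, 187 and 182 in WT cells, a difference of 0.45 ± 0.51 (SE) that was 0.08 without Ahr-KO replicate 3.

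Xaf1, a pro-apoptotic antagonist of the inhibitor XIAP, stood at 107, 199 and 102 in Ahr-KO cells and at 305, 64.9, 638 and 74.8 in WT cells. The ADP-ribosyltransferase gene Parp9 stood at 27.4, 116 and 44.6 in Ahr-KO cells and at 31.0, 25.7, 20.5 and 106 in WT cells. Its relative Parp14 stood at 67.9, 45.0 and 3.07 in Ahr-KO cells and was listed at 0 on WT replicate 2, with 13.9, 49.8 and 163 on the other WT arrays. Rtp4 ranged from 0.47 to 109 in Ahr-KO cells and from 0 to 598 in WT cells. The probe set used for Ifi35 differed by 0.48 ± 1.13 (SE) and the gene's other probe set by -0.82 ± 1.19 (SE), so the 2 disagreed in sign.

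The promoters of the members were read for the core of the interferon-stimulated response element, which the choice of genes did not use. The sequences are those of RefSeq (GRCm38.p6), from 250 bases before to 50 after each annotated start, and 36 of the 47 genes had an entry. The motif GAAANNGAAA, searched on both strands with overlapping matches counted, was present in 20 of the 36 genes (55.6%) and in 1079 of 27025 genes of the whole table (3.99%). A gene with several annotated starts counted once if any of its windows held a match. The stretches below show the matches in 6 members. They are read on the gene's strand, 5′ to 3′, end before the annotated start, and have the matching bases in capitals; a match on the opposite strand reads TTTCNNTTTC. They lie at chr4:156200860-156200912 (minus strand) for Isg15, chr19:34583357-34583431 (plus) for Ifit3, chr8:71537572-71537618 (minus) for Bst2, chr11:58199506-58199546 (plus) for Igtp, chr11:58214897-58214937 (plus) for Irgm2 and chr3:142559983-142560029 (plus) for Gbp3.
Isg15: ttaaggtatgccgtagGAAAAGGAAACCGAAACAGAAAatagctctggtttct
Ifit3: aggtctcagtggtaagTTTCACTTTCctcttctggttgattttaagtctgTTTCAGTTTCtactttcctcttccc
Bst2: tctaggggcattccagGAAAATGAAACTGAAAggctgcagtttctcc
Igtp: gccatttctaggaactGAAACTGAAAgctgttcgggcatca
Irgm2: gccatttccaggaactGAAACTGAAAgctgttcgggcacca
Gbp3: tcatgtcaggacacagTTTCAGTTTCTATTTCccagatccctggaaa

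Isg15 carried 3 overlapping matches that began 78 to 66 bases before the start, and Ifit3 carried 2 that did not overlap. The stretches of Igtp and Irgm2 were identical at 39 of 41 bases. Their differences were 1.80 and -0.33, with intervals that overlapped, from -0.19 to 3.78 and from -2.19 to 1.52. Whether these differences departed from each other was not tested. For both genes the highest arrays of the genotypes were Ahr-KO replicate 2 and WT replicate 4. WT replicate 3 was the lowest WT array for both, at 17.3 and 57.2. Of the measured members with a promoter entry, the 18 with the motif had a median difference of -0.08 and the 14 without it a median of 0.43; 8 and 9 of them were higher in Ahr-KO cells. Of the 10 members highest on Ahr-KO replicate 2 and WT replicate 4, 7 had a promoter entry and 1 of these, Irgm2, held the motif, against 17 of the other 25 measured members with an entry. Irf7 was among the 7, and its window held no match to these letters. The 10 members were picked by their values in these data, and only exact matches within the window were sought. These motif counts are therefore descriptions and do not show that the genes lack response elements.

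Genes of the interferon pathway outside the members gave a similar count. Of 36 ligands, receptors, kinases, sensors and adaptors, 33 were measured, 17 were higher in Ahr-KO cells and 16 lower, none with an adjusted p under 0.05 (lowest limma adjusted p = 0.963). An unadjusted p under 0.05 was reached by 2 of the 33, both higher in Ahr-KO cells, where 4.02% of all genes reached it and 1.98% did so with a higher value in Ahr-KO cells. Socs3, a feedback inhibitor of cytokine receptors, stood at 246, 76.7 and 107 in Ahr-KO cells and at 0.01, 54.5, 0.46 and 14.3 in WT cells, a difference of 4.42 ± 1.40 (SE). Ifngr2, the signalling chain of the interferon gamma receptor, stood at 197, 248 and 956 in Ahr-KO cells and at 137, 103, 17.5 and 59.3 in WT cells, a difference of 2.52 ± 0.86 (SE). The groups did not overlap for these 2 genes and for Tlr9, all 3 higher in Ahr-KO cells, as they did not for 2.62% of all genes in that direction. Tlr9, a sensor of unmethylated DNA, differed by 0.53 ± 0.47 (SE). Irf8, a myeloid member of the interferon regulatory factor family, stood at 112, 519 and 253 in Ahr-KO cells and at 6.21, 0.57, 248 and 98.2 in WT cells. Of the interferon genes, Ifna2 lay above background on 6 of the 7 arrays, at 118, 264 and 163 in Ahr-KO cells and at 108, 149, 39.2 and 135 in WT cells, a difference of 0.83 ± 0.61 (SE). Ifna1 lay above background on 3 WT arrays and Ifna4 on 1 WT array, and neither did on an Ahr-KO array. Ifnb1, Ifne, Ifnk and Ifng lay below it on every array, with Ifng at 15.3 to 21.8 in Ahr-KO cells and 19.4 to 31.5 in WT cells. The Ifna genes are close relatives, and probes shared between them were not checked.

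Of 40 further interferon-induced genes, 34 were measured, of which 17 were higher in Ahr-KO cells and 17 lower, none past the adjusted threshold (lowest limma adjusted p = 0.961). Cxcl9, a chemokine induced by interferon gamma, and Tap2, a subunit of the peptide transporter for MHC class I, had an unadjusted p under 0.05, which 4.02% of all genes had. Cxcl9 stood at 507, 336 and 283 in Ahr-KO cells and at 65.3, 40.6, 32.1 and 48.4 in WT cells. All Ahr-KO values lay above all WT values and above background, and the difference of 2.99 ± 0.47 (SE; limma adjusted p = 0.961) did not pass the adjusted threshold. Tap2 stood at 11.6, 6.53 and 16.4 in Ahr-KO cells and at 27.3, 29.5, 255 and 24.6 in WT cells, a difference of -2.04 ± 0.88 (SE). Only its value of 255, on WT replicate 3, lay above background. Groups that did not overlap were found for Cxcl9, higher in Ahr-KO cells, and for Tap2 and Ciita, lower in Ahr-KO cells, beside 5.78% of all genes. Ciita, like Tap2, lay above background on WT replicate 3 alone, at 44.4. Cxcl10, a chemokine induced by both kinds of interferon, was below background on all arrays, at 1.83 to 20.2 in Ahr-KO cells and 4.88 to 28.7 in WT cells. The mean log2 level of the 34 genes was 6.19, 7.00 and 6.66 on the knockout arrays and 6.50, 6.23, 6.54 and 7.10 on the wild-type arrays, with Ahr-KO replicate 2 and WT replicate 4 again the highest of their genotypes.

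Markers of other blood cells were set beside these levels, since the libraries are bulk samples in which fewer cells of a type and less RNA per cell cannot be told apart. For plasmacytoid dendritic cells, known for high Irf7 and Bst2, all 7 markers were measured and 3 lay above background on no array; their summed intensity was 194 to 444 in Ahr-KO cells and 176 to 320 in WT cells. Siglech, the defining surface receptor, stood at 95.7, 58.7 and 55.6 in Ahr-KO cells and at 45.7, 47.1, 64.9 and 36.2 in WT cells. For macrophages and dendritic cells 11 names were listed, of which Adgre1 and Emr1 are the same gene, and 9 genes were measured. Of these, 1 was higher in Ahr-KO cells and 8 lower, and 3 lay above background on no array. These 9 markers had a summed intensity of 247 to 834 in Ahr-KO cells and 614 to 1011 in WT cells. Their mean log2 level was 4.13, 5.46 and 4.59 in Ahr-KO cells and 5.35, 5.06, 5.42 and 5.72 in WT cells. For megakaryocytes, 4 of 5 markers were measured, with a summed intensity of 865 to 2213 in Ahr-KO cells and 874 to 2407 in WT cells, and a mean log2 level of 7.00, 8.59 and 7.06 in Ahr-KO cells and 7.52, 5.99, 7.57 and 8.92 in WT cells. By mean log2 level the macrophage and megakaryocyte lists were therefore also highest of their genotypes on Ahr-KO replicate 2 and WT replicate 4. So were the stem cell markers, with a mean log2 level of 6.80, 7.45 and 7.24 in Ahr-KO cells and 7.43, 5.97, 7.88 and 8.06 in WT cells, lowest on WT replicate 2 like the members. Summed intensities gave another order for 2 of these lists. The stem cell sum was lowest of the 7 arrays on Ahr-KO replicate 2, at 2984. It was highest on WT replicate 3, at 7902 against 4855 on WT replicate 4. The megakaryocyte sum was 2407 on WT replicate 3 and 2109 on WT replicate 4. By mean log2 level the interferon pathway genes outside the members were highest on Ahr-KO replicate 2 and WT replicate 4, at 5.98 and 5.71. The part of any of these lists in the members' levels was not tested.

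The granulocyte and monocyte markers, 11 of 11 measured, ran otherwise. All 11 were higher in Ahr-KO cells, with a median difference of 1.11, where 48.4% of all genes were higher. No cause was tested, and none of these markers had an adjusted limma p under 0.05 (lowest 0.963). Their mean log2 level was 8.52, 9.64 and 7.88 in Ahr-KO cells and 4.83, 10.02, 8.14 and 7.22 in WT cells, highest in both genotypes on replicate 2, which for the interferon-induced genes was the highest Ahr-KO and the lowest WT array, and their summed intensity was 6993 to 18018 in Ahr-KO cells and 1158 to 19130 in WT cells. The 11 measured stem cell markers summed to 2984 to 3669 in Ahr-KO cells and 3391 to 7902 in WT cells. Erythroid markers, 4 of 8 measured, summed to 89.8 to 969 in Ahr-KO cells and 214 to 563 in WT cells. T and NK markers, 10 of 10 measured, summed to 447 to 1128 in Ahr-KO cells and 267 to 691 in WT cells. B markers, 7 of 8 measured, summed to 138 to 195 in Ahr-KO cells and 160 to 296 in WT cells. All 7 B markers were lower in Ahr-KO cells, with differences of -0.87 to -0.04, and 11440 of all 22180 genes were lower. Of the 7, 4 lay above background on no array, and the lowest unadjusted limma p was 0.152. Counts higher and lower in Ahr-KO cells were 5 and 5 for T and NK markers, and 2 and 2 each for erythroid and megakaryocyte markers. They were 4 and 3 for plasmacytoid dendritic cell markers and 4 and 7 for stem cell markers. No marker of the cell types other than stem cells was listed at 0 on any array.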

How the data were processed

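The authors deposited 1 table of linear intensities, with 41155 probe sets in rows and 7 arrays in columns. Per the submitters' processing notes Affymetrix Expression Console was used; the way probes were summarized, background-corrected and normalized, and the genome build, are left unstated in the sources at hand. Array medians were 16.9 to 22.1, and 800 to 1621 values per array were exactly 0. Arrays have no read depth, so their number limits the precision. The platform annotation listed 25335 rows, of which 23521 carried 1 symbol. From these, log2(intensity + 1) was computed, and genotype alone was fitted by lmFit and eBayes of limma 3.58.1 in R 4.3.3. Two-sided p-values were adjusted over the 25335 rows (Benjamini-Hochberg); standard errors and intervals are moderated. The fit was tested on simulated data, with large differences seeded only in probe sets of below-median spread. That test does not measure how well differences of the members would be found.

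Members, lists, tests and the background mark were chosen with earlier results of these data known. Values on every array are given for members above background on all arrays, with an unadjusted p under 0.05, with groups that do not overlap, or that are transcription factors, and for others of note; up to 4 genes each of the interferon pathway and the further interferon-induced genes were taken by smallest unadjusted p. Cxcl10, Ciita, Tlr9, the interferon genes and the marker genes named (Kit, Slamf1, Fgd5, Tek, Mecom, Siglech) were added after their values were seen. Arrays with the same replicate number did not deviate together (correlations of 0.0227, -0.0646 and 0.0101), so the main fit has no block.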

Additional observations from a re-analysis of the deposited data

Results flagged for a closer look

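Among the 4 WT arrays, 2 of the 43 members had a value whose gap to its nearest neighbour exceeded Dixon's 95% critical share of the whole range on the log2 scale. Chance gives such a gap in about 1 of 20 groups, a rate near that of 2 in 43. The share over all genes is not given here. Mx1 was listed at 0 on WT replicate 2, against 8.86 to 12.3 on the other WT arrays. Gbp6 stood at 29.6 on WT replicate 3, against 9.08 to 9.93 on the other WT arrays. All of these values lay below the background mark, and what set them apart was not tested.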

How the results depend on the processing

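No alternative brought a probe set past an adjusted limma p of 0.05 (0 under each; 1067 had an unadjusted p under 0.05 in the reported fit), and no member changed its call. The count of members higher in Ahr-KO was 16 to 25 when single arrays were left out and 18 of 35 after a filter on dim probe sets. Members with an unadjusted p under 0.05 numbered 0 to 4 without single arrays, beside 3.63 to 5.16% of all genes. They numbered 1 of 35 with the filter, beside 4.48%, and 4 with the replicate block, beside 4.4%. The module difference of -0.02 was 0.05 after median centring, 0.01 after quantile normalization or with a pseudocount of 16, 0.26 with the replicate block, and -0.37 to 0.26 without single arrays. The median member difference was -0.01 with all probe sets of a gene averaged and -0.27 to 0.21 without single arrays. In the replicate block WT replicate 4 stood alone and added nothing to the difference. Differences of 25 of the 43 members turned sign under at least 1 alternative, and the cause was not tested. With the block they were -0.20 for Eif2ak2, -0.01 for Ifit3, 0.03 for Ifitm3, 0.08 for Irgm2, 0.67 for Isg15, 0.03 for Mx1 and 0.31 for Usp18. With a pseudocount of 16 they were 0.03 for Mx1, -0.08 for Parp14 and 0.15 for Usp18. Ifitm3 was 0.06 after median centring, Mx1 0.02 after quantile normalization, and Ifi35 -0.17 over both its probe sets. With Ahr-KO replicate 2 and WT replicate 4 both left out, an alternative chosen after seeing the data, Dhx58 was 0.83, Eif2ak2 -0.85, Ifitm3 0.17, Oas2 -0.88 and Rsad2 0.05. Leaving out single arrays gave -0.30 to 0.46 for Bst2, -3.26 to 0.51 for Dhx58, -0.58 to 0.61 for Eif2ak2, -1.11 to 0.14 for Gbp6, -1.64 to 0.38 for Gbp7, -0.58 to 1.12 for Ifi35, -1.76 to 0.26 for Ifit2, -0.08 to 0.12 for Ifit3 and -0.17 to 0.13 for Ifitm3. It gave -0.22 to 2.02 for Irf3, -0.52 to 2.0 for Irf9, -3.04 to 0.51 for Irgm1, -1.10 to 0.28 for Irgm2, -2.11 to 1.65 for Isg15, -1.37 to 0.86 for Mx1 and -0.44 to 0.58 for Mx2. It gave -1.38 to 1.29 for Oas2, -0.61 to 0.79 for Oas3, -0.27 to 2.14 for Oasl2, -1.09 to 1.59 for Parp14, -0.06 to 1.02 for Parp9, -2.39 to 0.99 for Usp18, -0.91 to 0.18 for Xaf1 and -0.21 to 1.03 for Zbp1.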
